A study of Pan troglodytes with 8 samples.

Results

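Kinesins are motor proteins that use ATP to move along microtubules, and most walk towards the growing end of the microtubule. Dividing progenitors use one set of kinesins to build the mitotic spindle, align chromosomes and complete cytokinesis, while neurons use others to carry vesicles, mitochondria and RNA into axons and dendrites. A smaller set works in cilia, in the Hedgehog pathway that signals through cilia, or in shortening microtubules. The regions examined here were those of the deposited accessibility table whose closest gene is a KIF gene, KIFC1 to KIFC3 or KIFAP3, the accessory subunit of a heterotrimeric kinesin, at any distance. This gave 169 of 218080 regions and 39 of the 41376 closest genes in the table. Of these, 8 carried no chimpanzee identifier and had a total count of 0, namely 7 regions next to KIF1A, including the one at its gene start, and 1 next to KIF5C. The results therefore describe 161 regions, of which 152 had enough counts to be tested.

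The populations came from cerebral organoids, brain-like tissue grown from pluripotent stem cells, made from the chimpanzee induced pluripotent line SandraA by seeding 9000 cells per well and collected at week 8, within 3 days either side. Fluorescence-activated sorting gave apical radial glia (aRG, the progenitors that line the ventricle), basal radial glia (bRG, which have left the ventricle), basal intermediate progenitors (bIP, which mostly divide to give neurons) and BCL11B+ neurons (N). The cells were fixed, and chromatin accessibility was read by ATAC-seq, in which a transposase cuts open DNA. All groups share this single untreated line, and each group holds 2 libraries. Whether both libraries of a population stem from different cultures is not given in the labels. The p-values therefore cover only the spread between these libraries, which may be technical.

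Library totals ran from 24913928 to 34845193 counts in regions. The 10 radial glia marker genes had a summed accessibility of 1175 and 1101 CPM (reads scaled to the library total) in aRG, 568 and 703 CPM in bIP and 398 and 388 CPM in N. The 10 neuron markers had 585 and 525 CPM in aRG, 1029 and 990 CPM in bIP and 996 and 943 CPM in N. Accessibility near BCL11B, the gene named in the neuron label, was 77.7 and 68.4 CPM in aRG, 91.9 and 87.5 CPM in bIP and 65.0 and 55.8 CPM in N, so it was lower in N than in bIP (log2 difference -0.57, SE 0.11, adjusted p = 0.0045, or -0.27 with regions within 1 kb). Markers of inhibitory neurons, choroid plexus, and mesenchyme and vessel cells also had lower summed values in N than in aRG, but not every member was lower. At an adjusted p under 0.05, 4 of 7, 4 of 6 and 3 of 7 were lower in that order, and 0 higher. Among all loci 28.1% were lower and 32.7% higher. The median log2 difference of the mesenchyme and vessel markers was -0.04. The 4 microglia markers with a locus had 34.0 and 31.9 CPM in aRG, 54.4 and 49.2 CPM in bIP and 37.2 and 31.9 CPM in N. Of these 4, 3 were higher in bIP than in aRG at an adjusted p under 0.05, where 21.9% of all loci were. No marker gene with a locus was at 0, and the part of these markers in the results was not tested. The share of all counts that lay at gene starts was 40.0% and 41.0% in the aRG libraries, 39.2% and 39.4% in those of bRG, 36.8% and 38.7% in those of bIP and 36.3% in each N library. This share moves with the results at gene starts below, which are also given scaled on starts alone. What made the share differ was not tested.

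A gene start region here lies at most 1 kb from its gene by the deposited distance, and a distal region lies farther away. For each of the 27 genes with 2 or more regions off the start, the distances, read from the regions' hg38 identifiers, pointed back to a single position of the gene within 5 bp. There were 36 gene start regions of 33 genes, 22.4% of the kinesin regions against 10.5% of all regions, and 125 distal regions. Each region belongs to its closest gene by distance alone, with no evidence that it acts on that gene, and the files give no exon or intron for it. Coordinates are those of panTro6, so a distance need not match them to the base. Among the 161 regions, 27 belong to 11 mitotic kinesins, 84 to 17 kinesins of axonal and cargo transport, 22 to 6 ciliary and signalling kinesins and 28 to 5 others, a grouping made from their known roles. No region in the table had KIF23, KIF4A, KIF4B or KIFC2 as its closest gene.

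Between bRG and aRG, 0 of the 152 tested kinesin regions differed at an adjusted p under 0.05 in edgeR's quasi-likelihood test, as did 0% of all regions tested. Without adjustment 5 kinesin regions had p under 0.05, next to KIF13A, KIF14, KIF18A, KIF1A and KIF2A, and DESeq2 called 0 of 161, with 1 at an unadjusted p under 0.05. In bIP against aRG, 32 regions were higher and 43 lower, 49.3% of the kinesin regions against 47.2% of all regions. N against bIP had 19 higher and 43 lower, 40.8% against 47.6% of all regions. The 19 became 7 without bIP replicate 2 and 10 with DESeq2. N against aRG had 40 higher and 57 lower, 63.8% against 69% of all regions, where 37.2% of all regions were higher. Any difference among the 4 populations was called at 101 kinesin regions, 66.4% against 73.5% of all regions. With both directions together these shares lie near those of all regions. By direction, 24.5% of all regions were higher and 22.6% lower in bIP against aRG. In N against bIP 25% were higher and 22.6% lower, so the 19 higher kinesin regions are a smaller share, which was not tested. The comparisons share libraries with one another, so each is given by its own values. In bulk libraries, fewer cells with a region open and less opening per cell cannot be told apart.

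At the 36 gene starts, 2 were higher and 16 lower in bIP than in aRG, where 10.7% of all gene starts were higher and 31.8% lower. The 16 became 10 without bIP replicate 1 and 9 with DESeq2. The median log2 difference was -0.34 at kinesin starts and -0.25 at all starts. In N against aRG, 5 kinesin starts were higher and 17 lower, while 56.1% of all starts were called, 16.6% higher and 39.5% lower. The medians were -0.36 and -0.23. Those 5 became 2 without aRG replicate 2 or bIP replicate 2 and 3 without either N library. At the 116 tested distal regions, 30 were higher and 27 lower in bIP than in aRG, where 47.7% of all distal regions were called. In N against aRG 35 were higher and 40 lower, against 39.9% higher and 30.7% lower of all distal regions. Their median in N against aRG was -0.11, and that of all distal regions was 0.32. In N against bIP, 17 distal kinesin regions were higher and 38 lower, where 50.1% of all distal regions were called, 26.8% higher and 23.3% lower. The 17 became 7 without bIP replicate 2.

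How many starts fell depended on the scaling. When counts within 1 kb were summed per gene and scaled on those sums alone, the median log2 difference of all genes was -0.011 in bIP and -0.0044 in N against aRG, in place of the -0.25 and -0.23 above. Of the 33 kinesin genes with a start, 2 were then higher and 6 lower in bIP and 6 higher and 10 lower in N, with medians of -0.11 and -0.14. Of all 20317 genes tested in that fit, 2649 were higher and 2590 lower in bIP than in aRG. In N, 5021 were higher and 5745 lower than in aRG. Values below given with the start alone come from that fit, so they differ from those of the same region in the fit of all regions. A fall of about the size of the median start is therefore relative to all regions, not to other starts.

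**Figure D1:**
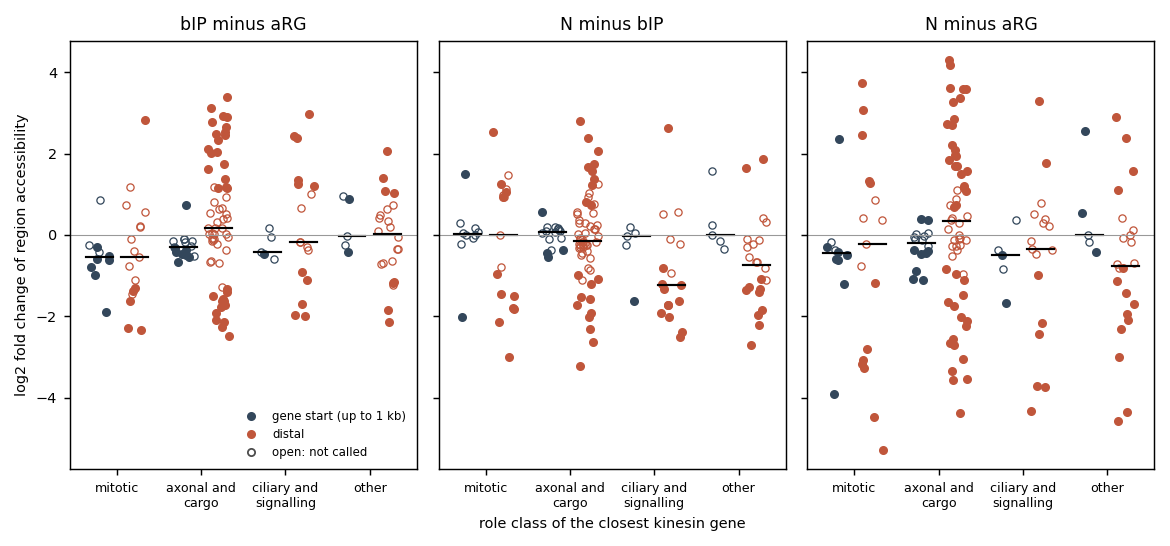
Each point is a tested kinesin region, placed by role class and by gene start or distal position, with its log2 difference on the vertical axis for 3 comparisons; filled points had an adjusted p under 0.05 and black lines are medians. All gene starts together have a median of -0.34 in bIP against aRG, 0.05 in N against bIP and -0.36 in N against aRG. Distal regions of every class spread from strong losses, such as -5.28 near KIF20B, to strong gains, such as 4.29 near KIF16B.

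Per kilobase of region, kinesin gene starts had higher values than distal regions, and their median was 17.9 CPM per kb in aRG, 15.5 CPM per kb in bRG, 13.9 CPM per kb in bIP and 13.8 CPM per kb in N. Distal regions had medians of 1.74, 1.82, 1.77 and 1.42 CPM per kb in the same order. KIFC1, a motor that walks towards the minus end and focuses spindle poles, had the most accessible start in each population, from 38.7 CPM per kb in bIP to 46.1 CPM per kb in aRG. KIF25 had the least accessible start in aRG, at 0.163 CPM per kb. The aRG population had the highest mean at 26 of the 36 starts, whereas the highest mean fell in N at 39 of the 125 distal regions, in bIP at 32, in aRG at 30 and in bRG at 24. Such counts were not made over all regions. The median log2 differences of all starts against aRG were -0.11 in bRG, -0.25 in bIP and -0.23 in N. Those of all distal regions were 0.02, 0.16 and 0.32 in the same order.

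Of the 10 mitotic start regions, which belong to 8 genes, 7 fell and 0 rose in bIP against aRG, and 7 fell and 1 rose in N against aRG, with 4 falling when aRG replicate 2 was left out. Among all starts 31.8% fell and 10.7% rose in bIP, and 39.5% fell and 16.6% rose in N. With the starts alone, 4 of the 8 genes fell and 0 rose in each comparison. Of all 20317 genes in that fit, 2590 fell and 2649 rose in bIP, and 5745 fell and 5021 rose in N. In N against bIP, 1 of the 10 start regions fell and 1 rose, against 16.8% and 11.4% of all starts, and the rise was lost without bIP replicate 2. KIF11, the motor that slides spindle microtubules apart and keeps the spindle bipolar, had its start at chr10:88574240-88575532. Its accessibility was 27.8 and 27.3 CPM in aRG, 24.0 and 24.0 CPM in bRG, 15.4 and 20.5 CPM in bIP and 17.6 and 18.4 CPM in N. Both radial glia populations lay above bIP and N in every library. The log2 difference was -0.62 (SE 0.15, adjusted p = 0.0046) for bIP against aRG and -0.62 (SE 0.15, adjusted p = 0.0025) for N against aRG. With the starts alone KIF11 gave -0.31 in bIP, a call lost (adjusted p = 0.055), and -0.30 in N (adjusted p = 0.035). KIF18A, which dampens chromosome movements at metaphase, was at chr11:27812391-27813834 and had 40.1 and 38.7 CPM in aRG, 32.1 and 34.3 CPM in bRG, 26.1 and 29.3 CPM in bIP and 25.5 and 27.1 CPM in N. It fell in bIP (log2 difference -0.51, SE 0.11, adjusted p = 0.0025) and in N (log2 difference -0.59, SE 0.11, adjusted p = 0.00045) relative to aRG, and again no bIP or N library reached a radial glia library.

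KIF18B, a motor on the astral microtubules of the spindle, fell as well. Its start at chr17:10290207-10291661 had 24.8 and 28.0 CPM in aRG, 19.6 and 25.4 CPM in bRG, 12.7 and 14.2 CPM in bIP and 11.5 and 11.6 CPM in N. It differed from aRG on the log2 scale by -0.98 (SE 0.17, adjusted p = 0.00046) in bIP and -1.19 (SE 0.17, adjusted p = 3.7e-05) in N. KIF14, a cytokinesis motor that binds citron kinase, was at chr1:175822979-175824122 with 20.4 and 22.5 CPM in aRG, 15.5 and 17.7 CPM in bRG, 11.6 and 13.2 CPM in bIP and 15.6 and 15.1 CPM in N. It fell in bIP (log2 difference -0.79, SE 0.16, adjusted p = 0.0016). Its fall in N (log2 difference -0.49, SE 0.16, adjusted p = 0.016) was lost without aRG replicate 2 (adjusted p = 0.11) or N replicate 2 (adjusted p = 0.062), and with the start alone (adjusted p = 0.11). KIF2C, which shortens microtubules to correct chromosome attachments, was at chr1:43548499-43549849 with 26.3 and 30.2 CPM in aRG, 16.4 and 21.2 CPM in bIP and 20.2 and 22.4 CPM in N. Its fall in bIP (log2 difference -0.59, SE 0.15, adjusted p = 0.006) was lost without aRG replicate 2 (adjusted p = 0.063) or bIP replicate 1 (adjusted p = 0.055). The fall in N (log2 difference -0.41, SE 0.15, adjusted p = 0.026) was lost without aRG replicate 2 (adjusted p = 0.17) or N replicate 1 (adjusted p = 0.11). With the start alone neither fall of KIF2C passed (adjusted p = 0.059 and 0.22). KIFC1 has 2 start regions. The one at 0 bp had 52.5 and 56.2 CPM in aRG, 40.8 and 50.4 CPM in bIP and 45.0 and 51.7 CPM in N, and it passed the test in none of the comparisons. The other, 855 bp away and with few reads, had 0.195 and 0.209 CPM in aRG, 0.399 and 0.345 CPM in bIP and 0.960 and 1.18 CPM in N. It rose in N against aRG (log2 difference 2.37, SE 0.47, adjusted p = 0.00058) and against bIP (log2 difference 1.5, SE 0.42, adjusted p = 0.01), and the latter call was lost without bIP replicate 2 (adjusted p = 0.10) and with DESeq2 (adjusted p = 0.13).

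**Figure D2:**
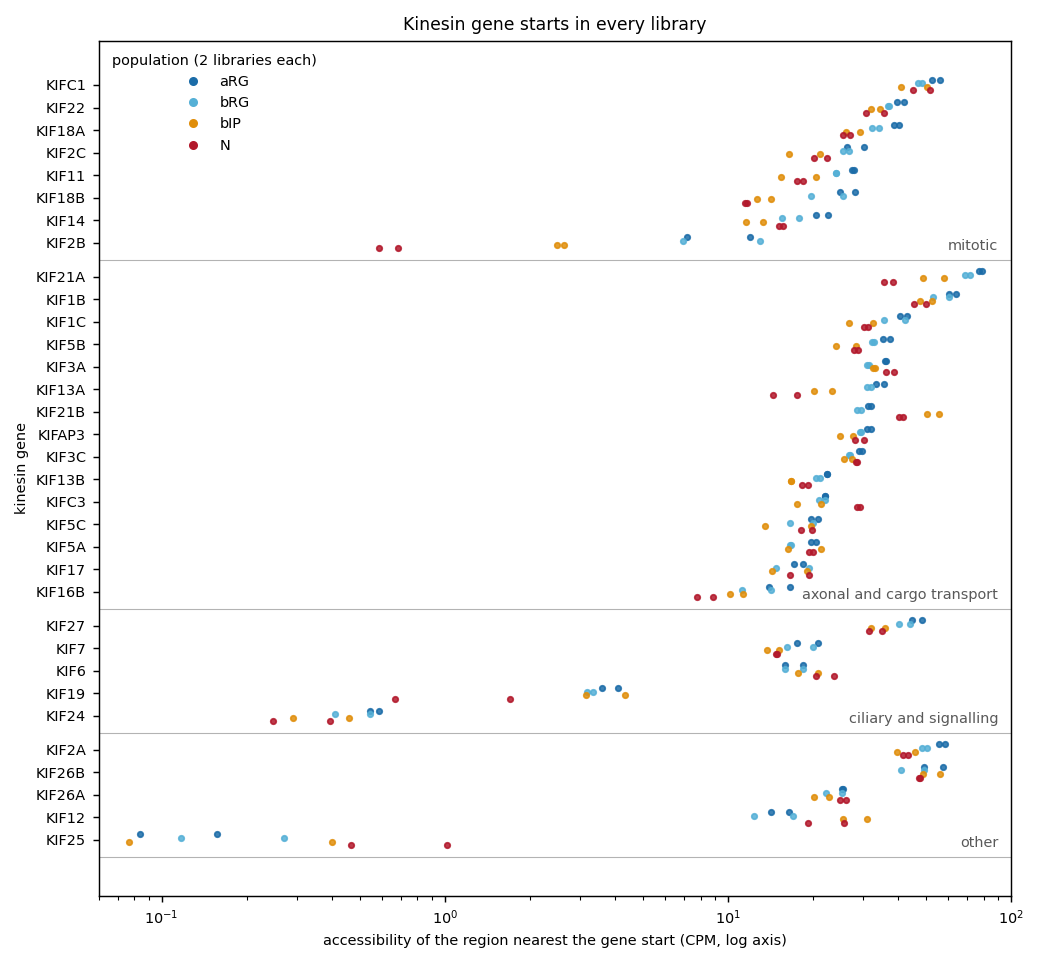
Accessibility in CPM on a log axis at the gene start region nearest to each of 33 kinesin genes, grouped by role class, with 1 point per library and a colour per population. Mitotic starts such as KIF11, KIF18A and KIF18B have the aRG and bRG points above those of bIP and N, KIF21B has bIP highest, at 50.5 and 55.4 CPM, and the KIF2B start drops from 12.0 and 7.16 CPM in aRG to 0.681 and 0.588 CPM in N.

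Several large changes near mitotic kinesins lay in distal regions. KIF20B is a motor needed for the final cut of cytokinesis and for normal cortical size in mice. A region 4457 bp from it, at chr10:85674875-85675226, had 4.92 and 4.78 CPM in aRG, 4.78 and 4.11 CPM in bRG, 0.870 and 1.11 CPM in bIP and 0.155 and 0.0784 CPM in N. It fell in bIP against aRG (log2 difference -2.29, SE 0.32, adjusted p = 0.00013) and again in N against bIP (log2 difference -2.99, SE 0.47, adjusted p = 0.00031). The difference between N and aRG was -5.28 (SE 0.42, adjusted p = 6.1e-07) on the log2 scale. Of the 4 KIF20B regions, this 1 was lower and 2 were higher in N than in aRG, by up to 2.45 on the log2 scale. Among all regions 31.7% were lower and 37.2% higher. The higher region 25752 bp away lost its call with DESeq2 (adjusted p = 0.25). The only region of KIF15, a motor that helps to hold the spindle open, was 11002 bp away at chr3:45004784-45005911. It had 4.45 and 3.44 CPM in aRG, 2.85 and 3.50 CPM in bRG, 0.652 and 0.919 CPM in bIP and 0.155 and 0.196 CPM in N. Each step down passed the test, with log2 differences of -2.33 (SE 0.34, adjusted p = 0.00018) in bIP against aRG and -2.15 (SE 0.46, adjusted p = 0.0024) in N against bIP. Near KIF18A, regions 12529 and 14260 bp away held 3.09 and 2.26 CPM and 4.18 and 3.39 CPM in aRG. In N they held 0.279 and 0.313 CPM and 0.434 and 0.470 CPM, differences of -3.16 and -3.06 on the log2 scale. KIF20A, which acts in the cleavage furrow, had a single region 9175 bp away whose libraries differed widely within a population. It had 4.88 and 12.5 CPM in aRG, 4.34 and 11.8 CPM in bRG, 1.30 and 5.02 CPM in bIP and 0.991 and 0.784 CPM in N. In aRG, bRG and bIP the second library had over 2 times the first, and N was lower than aRG (log2 difference -3.27, SE 0.67, adjusted p = 0.00079).

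Some distal regions of mitotic kinesin genes gained accessibility instead. A region of 420 bp at chr16:23086924-23087343, 4553 bp from KIF22, a motor that pushes chromosome arms, had 0.742 and 0.628 CPM in aRG, 0.910 and 0.713 CPM in bRG, 4.89 and 4.86 CPM in bIP and 9.91 and 8.58 CPM in N. All libraries of bIP lay above all of aRG and bRG, and all of N above all of bIP. The gain on the log2 scale was 2.82 (SE 0.32, adjusted p = 3.2e-05) in bIP and 3.74 (SE 0.32, adjusted p = 9.3e-07) in N against aRG. KIF2B, a microtubule-shortening kinesin known mainly from testis, changed in both directions. Its start at chr17:47073498-47074931 fell from 12.0 and 7.16 CPM in aRG to 2.65 and 2.49 CPM in bIP (log2 difference -1.90, SE 0.36, adjusted p = 0.00096) and 0.681 and 0.588 CPM in N (log2 difference -2.00, SE 0.42, adjusted p = 0.0019 against bIP). A region 14929 bp away, at chr17:47058890-47059845, had 0.703 and 0.964 CPM in aRG, 1.49 and 0.957 CPM in bIP and 5.92 and 8.23 CPM in N. It rose in N against bIP (log2 difference 2.52, SE 0.34, adjusted p = 0.00012). Of the 17 mitotic distal regions, 5 rose and 7 fell in N against aRG, where 39.9% of all distal regions rose and 30.7% fell, with 3 rising when aRG replicate 2 was left out.

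Counts summed over the regions within 50 kb of a gene, here called its locus, gave 14 of 39 kinesin loci that differed in bIP against aRG. Of these 4 were higher and 10 lower, against 40.3% of all loci, 21.9% higher and 18.5% lower. N against bIP gave 3 higher and 7 lower, against 39.9% of all loci, and the 3 became 1 without bIP replicate 2. N against aRG gave 4 higher and 15 lower, against 60.8% of all loci, 32.7% higher and 28.1% lower. For N against bIP, 20.5% of all loci were higher and 19.4% lower. Among the 11 mitotic loci, 6 were lower and 0 higher both in bIP and in N relative to aRG, and in N against bIP 1 was lower. KIF15 fell furthest, from 5.02 and 3.87 CPM in aRG to 0.847 and 1.16 CPM in bIP (log2 difference -2.14, SE 0.30, adjusted p = 0.0007) and 0.196 and 0.242 CPM in N (log2 difference -2.18, SE 0.42, adjusted p = 0.0039 against bIP). The KIF18A locus held 53.4 and 49.9 CPM in aRG and 33.1 and 34.5 CPM in N (log2 difference -0.61, SE 0.10, adjusted p = 0.00052, or -0.36 with the start alone). The KIF18B locus held 28.9 and 32.4 CPM in aRG and 15.4 and 15.2 CPM in N (log2 difference -1.0, SE 0.16, adjusted p = 0.00058). KIF11 had 49.5 and 46.4 CPM in aRG and 35.9 and 38.3 CPM in N (log2 difference -0.37, SE 0.13, adjusted p = 0.032). This difference was lost without either aRG library or either N library, with adjusted p from 0.061 to 0.15. KIF2C, with 29.6 and 34.0 CPM in aRG and 25.5 and 27.7 CPM in N, did not pass, and neither did KIFC1 or KIF22. KIF14 fell in bIP from 25.1 and 26.7 CPM to 16.8 and 18.1 CPM (log2 difference -0.57, SE 0.13, adjusted p = 0.0083), a call lost without aRG replicate 2 (adjusted p = 0.061). In N it had 22.3 and 22.4 CPM.

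**Figure D3:**
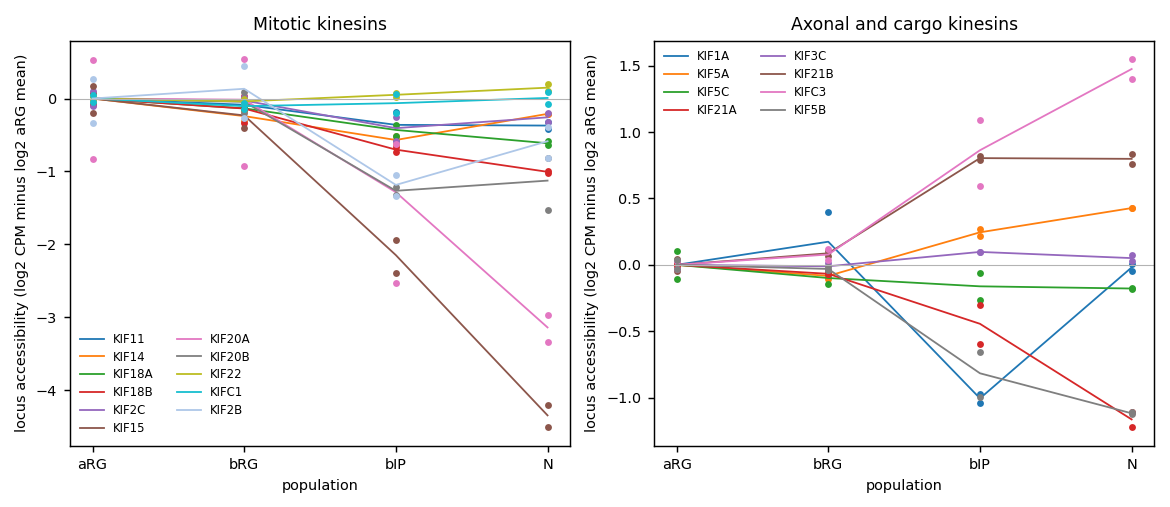
Locus accessibility in each library as log2 CPM minus the log2 of the aRG mean, for 11 mitotic kinesins and 8 kinesins of axonal and cargo transport. KIF15 and KIF20A fall well below 0 in N, where the KIF15 locus is at 0.196 and 0.242 CPM, while KIFC3 and KIF21B lie above 0 in both bIP libraries and both N libraries.

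For 6 kinesin genes no region lay within 1 kb. For 5 of them a region assigned to another gene lay within 1 kb of a position that their distances allow, which was looked up after the values were seen. KIF15, KIF20A and KIF9 have a single region, whose distance allows a position on either side of it. The region at the KIF15 position is assigned to KIAA1143 and had 25.0 and 27.5 CPM in aRG, 15.0 and 16.2 CPM in bIP and 14.1 and 15.0 CPM in N. That at KIF20A, assigned to BRD8, had 41.5 and 43.3 CPM in aRG, 29.7 and 32.4 CPM in bIP and 30.9 and 34.4 CPM in N. At KIF20B, the region assigned to AL157400.3 had 42.1 and 38.3 CPM in aRG, 29.7 and 31.3 CPM in bIP and 35.6 and 34.4 CPM in N. In each of these 3 the aRG libraries lay above those of bIP and N, but the KIF20B one did not pass in N against aRG (adjusted p = 0.10). The other two did not pass in any comparison. At KIF3B, the region assigned to AL121897.1 had 9.46 and 11.7 CPM in aRG and 11.8 and 13.6 CPM in N. At KIF9, the one assigned to KLHL18 had 28.1 and 28.7 CPM in aRG and 28.7 and 30.0 CPM in N. The locus values of these genes leave those regions out.

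Of the 16 start regions of the kinesins of axonal and cargo transport, 1 rose and 7 fell in bIP against aRG, against 10.7% and 31.8% of all starts, with 4 falling without aRG replicate 1 and 3 without bIP replicate 1 or with DESeq2. In N against aRG, 2 starts rose and 7 fell, against 16.6% and 39.5% of all starts, and the 2 became 0 without bIP replicate 2. With the starts alone, 1 of 15 genes rose and 2 fell in bIP, and 3 rose and 3 fell in N. Of all 20317 genes in that fit, 2649 rose and 2590 fell in bIP, and 5021 rose and 5745 fell in N. The start of KIF5A, the neuronal heavy chain of conventional kinesin, at chr12:31691530-31692595, had 20.5 and 19.6 CPM in aRG, 16.6 and 16.7 CPM in bRG, 16.3 and 21.2 CPM in bIP and 20.0 and 19.3 CPM in N. The populations overlapped. A second KIF5A region, 2728 bp away at chr12:31688021-31689526, had 5.67 and 6.79 CPM in aRG, 10.2 and 7.81 CPM in bIP and 12.2 and 14.1 CPM in N. It rose in N against aRG (log2 difference 1.08, SE 0.24, adjusted p = 0.0014). The KIF5A locus rose in N from 31.4 and 32.0 CPM to 42.6 and 42.6 CPM (log2 difference 0.43, SE 0.09, adjusted p = 0.0036), but not when only its start was counted (adjusted p = 0.18).

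KIF5C, another neuronal heavy chain of conventional kinesin, had 19.7 and 20.8 CPM in aRG, 16.5 and 19.9 CPM in bRG, 13.5 and 19.7 CPM in bIP and 18.1 and 19.8 CPM in N at chr2B:35437644-35438839, which did not pass the test in any comparison. Its other start region, 963 bp away, had 42.2 and 32.7 CPM in aRG, 28.1 and 29.6 CPM in bIP and 27.4 and 26.5 CPM in N. It fell in bIP (log2 difference -0.38, SE 0.13, adjusted p = 0.027) and in N (log2 difference -0.47, SE 0.13, adjusted p = 0.005) against aRG, and both calls were lost without aRG replicate 1 (adjusted p = 0.35 and 0.095). The fall in bIP was also lost without bIP replicate 1 (adjusted p = 0.11) and with DESeq2 (adjusted p = 0.15). KIF3C, a kinesin expressed mainly in neurons, had 29.0 and 29.8 CPM in aRG, 25.7 and 27.4 CPM in bIP and 28.3 and 28.5 CPM in N at chr2A:25949670-25951060. None of its 3 regions passed. The starts of KIF3A, of its partner subunit KIFAP3 and of KIF17 did not pass either, although with the starts alone KIF3A was 0.27 higher in N than in aRG (adjusted p = 0.010).

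KIF5B, the heavy chain of conventional kinesin made in most cell types, lost accessibility at 3 distal regions and, in the fit of all regions, at its start. Its start at chr10:32170600-32172127 had 35.2 and 37.3 CPM in aRG, 24.1 and 28.2 CPM in bIP and 27.8 and 28.7 CPM in N. The fall in N (log2 difference -0.36, SE 0.11, adjusted p = 0.013) was lost without aRG replicate 2 (adjusted p = 0.080). The log2 differences were larger at regions 1734, 14442 and 22793 bp away. At 14442 bp, chr10:32156279-32157303, accessibility was 15.3 and 10.8 CPM in aRG, 12.2 and 10.7 CPM in bRG, 2.50 and 3.68 CPM in bIP and 0.619 and 0.627 CPM in N. The libraries of bIP lay between the radial glia and N. On the log2 scale the steps were -2.08 (SE 0.29, adjusted p = 0.00013) in bIP against aRG and -2.30 (SE 0.34, adjusted p = 0.00023) in N against bIP. Those at 1734 and 22793 bp fell in N by 3.35 and 3.54 on the log2 scale relative to aRG, with adjusted p of 2.8e-06 and 1.2e-06. The KIF5B locus went from 86.8 and 82.8 CPM in aRG to 42.5 and 53.8 CPM in bIP (log2 difference -0.82, SE 0.11, adjusted p = 0.00069) and 39.3 and 38.9 CPM in N (log2 difference -1.12, SE 0.11, adjusted p = 5e-05). The start alone, scaled on starts, gave -0.23 and -0.14, neither past the threshold (adjusted p = 0.055 and 0.17), so the call at the start depended on the scaling.

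KIF1A carries synaptic vesicle precursors along axons. Its start has no chimpanzee identifier and no counts, so only distal regions could be read. One of them, 14302 bp away at chr2B:127445939-127446686, had 0.234 and 0.251 CPM in aRG, 0.558 and 0.577 CPM in bRG, 0.725 and 0.536 CPM in bIP and 4.40 and 4.51 CPM in N. Both N libraries stood above all others. They differed on the log2 scale by 2.81 (SE 0.33, adjusted p = 6.5e-05) against bIP and 4.17 (SE 0.38, adjusted p = 1.5e-06) against aRG. A neighbouring region at 27065 bp, chr2B:127432306-127433690, went the other way, from 5.94 and 5.45 CPM in aRG to 1.81 and 2.18 CPM in bIP (log2 difference -1.51, SE 0.31, adjusted p = 0.0016) and 0.805 and 0.940 CPM in N (log2 difference -2.71, SE 0.33, adjusted p = 1.4e-05 against aRG). Summed, the KIF1A locus had 7.58 and 7.54 CPM in aRG, 9.95 and 7.11 CPM in bRG, 3.86 and 3.68 CPM in bIP and 7.60 and 7.32 CPM in N. It fell in bIP (log2 difference -1.0, SE 0.23, adjusted p = 0.0076). Its rise from bIP to N (log2 difference 0.99, SE 0.23, adjusted p = 0.0088) was lost without bIP replicate 2 (adjusted p = 0.060). KIF1B, which moves mitochondria and synaptic vesicle precursors, lost accessibility at 13970 bp (chr1:8900760-8901874). The region went from 7.03 and 6.07 CPM in aRG to 1.12 and 1.23 CPM in bIP (log2 difference -2.48, SE 0.29, adjusted p = 4.3e-05) and 0.557 and 0.549 CPM in N (log2 difference -3.56, SE 0.32, adjusted p = 1.3e-06 against aRG). At 9527 bp it gained, from 2.54 and 2.30 CPM in aRG to 11.3 and 8.16 CPM in bIP (log2 difference 2.01, SE 0.35, adjusted p = 0.00058) and 10.3 and 5.52 CPM in N.

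KIF21A and KIF21B are related motors of axons and dendrites that restrain microtubule growth, and in bIP the start of the first fell while that of the second rose. The KIF21A start at chr12:49605178-49608170, a region of 2993 bp, had 78.8 and 77.3 CPM in aRG, 71.5 and 68.7 CPM in bRG, 48.9 and 58.0 CPM in bIP and 38.1 and 35.6 CPM in N. It fell in bIP against aRG (log2 difference -0.55, SE 0.09, adjusted p = 0.00053) and again in N against bIP (log2 difference -0.54, SE 0.09, adjusted p = 0.00069), with no overlap between the radial glia, bIP and N. The KIF21B start at chr1:176220446-176223566 had 32.1 and 31.2 CPM in aRG, 28.5 and 29.6 CPM in bRG, 50.5 and 55.4 CPM in bIP and 41.7 and 40.2 CPM in N. It rose in bIP against aRG (log2 difference 0.74, SE 0.10, adjusted p = 9.8e-05). Its later change from bIP to N (log2 difference -0.37, SE 0.10, adjusted p = 0.0081) was lost without N replicate 2 (adjusted p = 0.055). A KIF21B region 11599 bp away, chr1:176210818-176211441, went from 3.20 and 2.26 CPM in aRG and 3.49 and 2.92 CPM in bRG to 16.2 and 14.4 CPM in bIP (log2 difference 2.48, SE 0.24, adjusted p = 1.5e-05) and 19.0 and 20.3 CPM in N (log2 difference 2.84, SE 0.24, adjusted p = 1e-06 against aRG).

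Among the 14 regions of KIF21A, 8 were lower and 2 higher in N than in aRG, the latter becoming 1 without aRG replicate 1 or N replicate 2. Of all regions 31.7% were lower and 37.2% higher in N than in aRG. The strongest KIF21A region by p, 48458 bp away at chr12:49654393-49656197, had 30.6 and 27.9 CPM in aRG, 26.1 and 26.5 CPM in bRG, 8.26 and 11.6 CPM in bIP and 5.51 and 4.43 CPM in N (log2 difference -2.55, SE 0.19, adjusted p = 4.6e-07). Nearer to the gene, at 43234 bp (chr12:49649149-49649986), accessibility peaked in bIP. It was 1.25 and 2.22 CPM in aRG, 5.69 and 9.30 CPM in bIP and 0.743 and 0.862 CPM in N. That region rose from aRG to bIP (log2 difference 2.11, SE 0.36, adjusted p = 0.00049) and fell from bIP to N (log2 difference -3.22, SE 0.39, adjusted p = 7.1e-05). The KIF21A locus had 126 and 124 CPM in aRG, 82.7 and 101 CPM in bIP and 58.1 and 53.7 CPM in N. It was lower in N than in bIP (log2 difference -0.72, SE 0.11, adjusted p = 0.0013) and than in aRG (log2 difference -1.16, SE 0.11, adjusted p = 3.3e-05). Its fall in bIP was lost without aRG replicate 1 or bIP replicate 1. The KIF21B locus had 81.1 and 76.4 CPM in aRG, 139 and 136 CPM in bIP and 140.2 and 134 CPM in N. It was higher than aRG in bIP (log2 difference 0.80, SE 0.08, adjusted p = 0.00018) and in N (log2 difference 0.80, SE 0.08, adjusted p = 5e-05).

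KIF16B, a motor that carries early endosomes, had 21 regions reaching from its start to 156372 bp away, and 18 could be tested. In bIP against aRG, 11 rose and 0 fell, and in N against aRG 11 rose and 3 fell. Among all regions 24.5% rose and 22.6% fell in the former, and 37.2% rose and 31.7% fell in the latter. The 11 in bIP became 6 without aRG replicate 1 or bIP replicate 2. The 3 that fell in N became 1 when any 1 of the aRG or bRG libraries, bIP replicate 1 or N replicate 1 was left out. At 152803 bp, chr20:16719268-16720635, accessibility was 0.352 and 0.419 CPM in aRG, 0.352 and 0.577 CPM in bRG, 3.55 and 2.30 CPM in bIP and 7.22 and 8.03 CPM in N (log2 difference 4.29, SE 0.39, adjusted p = 1.5e-06 against aRG). A region at 74996 bp, chr20:16798235-16798885, rose in N against bIP, from 0.616 and 0.498 CPM in bIP to 2.63 and 3.25 CPM in N (log2 difference 2.39, SE 0.38, adjusted p = 0.00035). Other regions were highest in bIP. At 130929 bp the values were 1.95 and 1.34 CPM in aRG, 7.58 and 11.5 CPM in bIP and 1.70 and 1.37 CPM in N. This was a rise (log2 difference 2.53, SE 0.39, adjusted p = 0.00025) and then a fall (log2 difference -2.63, SE 0.39, adjusted p = 0.00023). The start itself, chr20:16871701-16872881, fell in N, from 16.6 and 13.9 CPM in aRG to 8.83 and 7.80 CPM (log2 difference -0.88, SE 0.21, adjusted p = 0.0021). The direction of the KIF16B locus in N against aRG depended on the window. It was -0.55 within 50 kb, a call lost without aRG replicate 1 or N replicate 2, and 0.97 over regions at any distance.

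**Figure D4:**
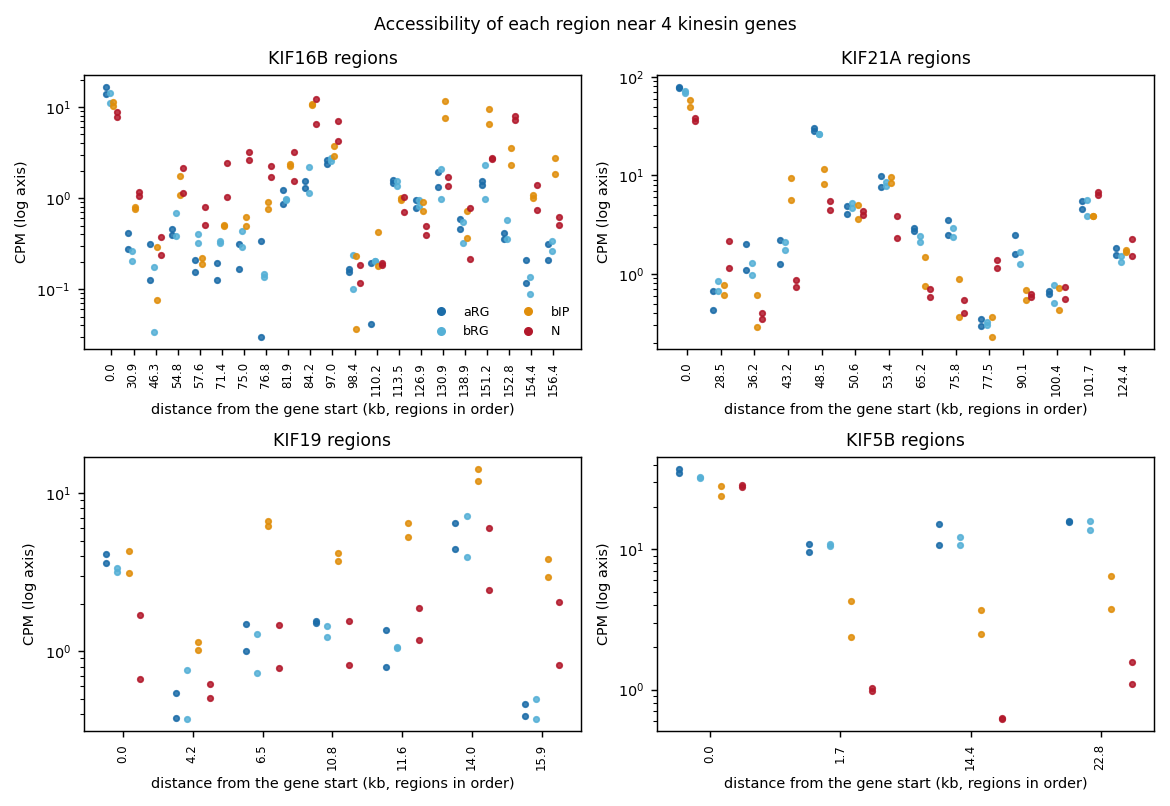
CPM on a log axis of every region near KIF16B, KIF21A, KIF19 and KIF5B against its distance from the gene, with 1 point per library and a colour per population; the single value of 0, KIF16B at 76777 bp in aRG replicate 1, is drawn at the lower edge. Of the 18 tested KIF16B regions 11 rose in bIP against aRG, where 24.5% of all regions rose. The 6 distal KIF19 regions have their highest mean in bIP, and those of KIF5B drop from aRG and bRG to N, for example from 15.3 and 10.8 CPM in aRG to 0.619 and 0.627 CPM in N at 14442 bp.

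KIFC3, a motor that walks towards the minus end and acts at adherens junctions and in vesicle transport, had its largest gains away from its start. At 13494 bp, chr16:42914665-42915663, accessibility was 1.29 and 1.34 CPM in aRG, 1.97 and 1.66 CPM in bRG, 15.9 and 11.5 CPM in bIP and 12.4 and 12.9 CPM in N. It was higher than aRG in bIP (log2 difference 3.38, SE 0.29, adjusted p = 7.8e-06) and in N (log2 difference 3.27, SE 0.29, adjusted p = 1.2e-06). A region at 6778 bp had 1.41 and 1.89 CPM in aRG, 8.88 and 4.56 CPM in bIP and 16.5 and 23.4 CPM in N (log2 difference 3.60, SE 0.38, adjusted p = 4.7e-06 against aRG). The locus rose from 31.1 and 32.4 CPM in aRG to 67.7 and 47.9 CPM in bIP (log2 difference 0.86, SE 0.15, adjusted p = 0.0023) and 83.7 and 93.0 CPM in N (log2 difference 1.47, SE 0.15, adjusted p = 5.5e-05 against aRG, or 0.62 with the start alone). Its rise in bIP did not pass when regions beyond 10 kb were left out (adjusted p = 0.055). The rise from bIP to N (log2 difference 0.61, SE 0.15, adjusted p = 0.011) was lost without bIP replicate 2 or N replicate 2.

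Among the remaining cargo kinesins, KIF13A, which moves recycling endosomes, fell at its start (chr6:17843818-17846287) from 35.6 and 33.3 CPM in aRG to 20.1 and 23.4 CPM in bIP (log2 difference -0.67, SE 0.13, adjusted p = 0.0015) and 17.5 and 14.4 CPM in N (log2 difference -1.11, SE 0.14, adjusted p = 1.3e-05 against aRG). KIF1C, which carries vesicles in many cell types, had 42.7 and 40.6 CPM in aRG and 30.1 and 31.2 CPM in N at its start (log2 difference -0.44, SE 0.12, adjusted p = 0.0064, lost with the start alone at an adjusted p = 0.067). KIF3B, a subunit of the motor that serves cilia and axons, had a region 4502 bp away that rose from 0.508 and 0.754 CPM in aRG to 3.88 and 4.79 CPM in bIP (log2 difference 2.78, SE 0.39, adjusted p = 0.00013). Another, 24146 bp away, fell from 2.73 and 2.39 CPM in aRG to 0.372 and 0.235 CPM in N (log2 difference -3.04, SE 0.43, adjusted p = 4.7e-05). Counting all 60 tested distal regions of the axonal and cargo kinesins, 19 rose and 13 fell in bIP against aRG and 24 rose and 17 fell in N against aRG. Among all distal regions 26.3% rose and 21.5% fell in bIP, and 39.9% rose and 30.7% fell in N. The 19 became 12 without aRG replicate 1. KIF16B alone gave 11 of the 19 rises in bIP and 11 of the 24 in N, and 0 of the 13 falls in bIP. The counts of rises are therefore not spread evenly over the genes of this class.

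The ciliary and signalling kinesins had 17 tested distal regions, of which 6 rose and 5 fell in bIP against aRG and 1 rose and 11 fell in N against bIP. Among all distal regions 26.3% rose and 21.5% fell in the former, and 26.8% rose and 23.3% fell in the latter. The 5 became 3 when any 1 of the aRG or bIP libraries was left out, and the 11 became 7 without N replicate 1. KIF19, which shortens microtubules at the tips of motile cilia, accounted for all 6 rises. Of its 7 regions, 6 were higher in bIP than in aRG and 6 were lower in N than in bIP. The region 6462 bp away, chr17:67432240-67433019, had 1.48 and 1.01 CPM in aRG, 0.734 and 1.29 CPM in bRG, 6.71 and 6.24 CPM in bIP and 1.46 and 0.784 CPM in N. It rose in bIP (log2 difference 2.37, SE 0.38, adjusted p = 0.00033) and fell again in N (log2 difference -2.51, SE 0.38, adjusted p = 0.00025), so that N overlapped aRG. The next region, 11606 bp away, had 1.37 and 0.796 CPM in aRG, 5.29 and 6.43 CPM in bIP and 1.89 and 1.18 CPM in N. The KIF19 start, chr17:67424579-67426299, did not rise in bIP at the threshold and had 4.10 and 3.60 CPM in aRG, 4.31 and 3.14 CPM in bIP and 1.70 and 0.666 CPM in N. It fell from bIP to N (log2 difference -1.62, SE 0.39, adjusted p = 0.0044), with a log2 difference of -2.50 without N replicate 1. The locus held 18.0 and 13.7 CPM in aRG, 17.8 and 13.8 CPM in bRG, 50.7 and 45.4 CPM in bIP and 19.4 and 8.92 CPM in N. It rose in bIP (log2 difference 1.60, SE 0.32, adjusted p = 0.0041) and fell from bIP to N (log2 difference -1.76, SE 0.32, adjusted p = 0.003). With the start alone the rise was 0.20 on the log2 scale and did not pass.

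KIF27, a relative of KIF7 that acts in motile cilia, had the kinesin region with the smallest p in N against aRG. This region, 13218 bp away at chr9:42666933-42668181, had 20.6 and 20.2 CPM in aRG, 20.6 and 19.3 CPM in bRG, 4.57 and 5.93 CPM in bIP and 0.929 and 1.10 CPM in N. The log2 differences were -1.96 (SE 0.21, adjusted p = 2.3e-05) for bIP against aRG and -2.37 (SE 0.24, adjusted p = 3.3e-05) for N against bIP. For N against aRG it was -4.33 (SE 0.24, adjusted p = 6.8e-08). Another KIF27 region, 33194 bp away, went the other way from a low level, with 0.0391 and 0.126 CPM in aRG, 0.145 and 0.115 CPM in bIP and 0.557 and 1.14 CPM in N (log2 difference 3.29, SE 0.65, adjusted p = 0.0006 against aRG). The KIF27 start fell from 44.7 and 48.4 CPM in aRG to 31.5 and 34.9 CPM in N (log2 difference -0.49, SE 0.11, adjusted p = 0.0015). The locus went from 78.4 and 81.8 CPM in aRG to 51.7 and 57.6 CPM in bIP (log2 difference -0.55, SE 0.10, adjusted p = 0.0028) and 46.7 and 53.5 CPM in N. Its fall in bIP did not pass when regions beyond 10 kb were left out (adjusted p = 0.073). KIF6, found in ependymal cilia, had 18.4 and 15.9 CPM in aRG and 23.6 and 20.5 CPM in N at its start, which passed as 0.59 higher with the starts alone (adjusted p = 0.0053). Its 3 distal regions fell in N against aRG, by 3.73, 3.70 and 2.44 on the log2 scale. KIF9, a motor of motile cilia, had 1 region, 7635 bp away, that fell from 1.60 and 2.01 CPM in aRG to 0.310 and 0.509 CPM in N (log2 difference -2.15, SE 0.38, adjusted p = 0.00028). KIF7, which organises the ciliary tip for Hedgehog signalling, had 20.8 and 17.5 CPM in aRG and 14.8 and 14.9 CPM in N at its start, with no call in any comparison. The single region of KIF24, which restrains cilium assembly at the centriole, stayed below 1 CPM in each library.

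KIF2A, which shortens microtubules in spindles and growing axons, lies on an unlocalised scaffold of chromosome 5. Its start had 58.3 and 55.7 CPM in aRG, 50.5 and 48.5 CPM in bRG, 39.6 and 45.7 CPM in bIP and 43.1 and 41.6 CPM in N, lower in N than in aRG (log2 difference -0.43, SE 0.10, adjusted p = 0.0015). A distal region at bases 7431424 to 7432318 of that scaffold, 37080 bp away, had 16.6 and 12.2 CPM in aRG, 8.19 and 7.97 CPM in bRG, 3.37 and 4.67 CPM in bIP and 0.557 and 0.666 CPM in N. The bRG libraries lay below both aRG libraries there, but bRG against aRG did not pass. The region fell in bIP against aRG (log2 difference -1.84, SE 0.28, adjusted p = 0.00021) and in N against bIP (log2 difference -2.71, SE 0.33, adjusted p = 7.6e-05). A region 44952 bp away fell from bIP to N, from 17.5 and 17.1 CPM in bIP to 5.20 and 3.57 CPM in N (log2 difference -1.97, SE 0.20, adjusted p = 3.4e-05), with 23.4 and 20.5 CPM in aRG. KIF12, a kinesin best known from kidney and liver, rose in bIP at its start (chr9:86365441-86367885), from 16.5 and 14.2 CPM in aRG to 31.0 and 25.6 CPM (log2 difference 0.88, SE 0.19, adjusted p = 0.0026). A KIF12 region 18678 bp away, chr9:86385875-86387034, went the other way, from 27.1 and 23.0 CPM in aRG to 5.22 and 6.16 CPM in bIP (log2 difference -2.14, SE 0.26, adjusted p = 5.9e-05) and 1.67 and 0.705 CPM in N (log2 difference -2.22, SE 0.30, adjusted p = 0.00013 against bIP). KIF25 had low values throughout. Its locus rose from 2.33 and 2.64 CPM in aRG and 4.04 and 3.34 CPM in bIP to 9.29 and 10.4 CPM in N (log2 difference 1.41, SE 0.23, adjusted p = 0.0017 against bIP, with 1.56 and adjusted p = 0.12 with the start alone). Most of the N signal lay in a region 32062 bp away, at 4.77 and 5.84 CPM. The starts of KIF26A and KIF26B, atypical kinesins with roles in neural development, did not pass the test.

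The authors deposited 1 list of consensus peaks per population. Those of aRG overlapped 91 of the 161 kinesin regions (56.5%), those of bRG 89 (55.3%), those of bIP 83 (51.6%) and those of N 68 (42.2%). Over all regions the shares were 37.7%, 39.2%, 37.4% and 38.1% in the same order. Of the 36 starts, 31 had a peak in each of the 4 populations and 3 had none. The share of starts with a peak was 91.7% in aRG and 86.1% in N, against 73.2% and 69.3% of all starts. At distal regions the share went from 46.4% in aRG to 29.6% in N, against 33.2% and 34.2% of all distal regions. Of the distal kinesin regions, 18 had a peak in aRG and bRG alone, 20 in all 4 and 47 in none. How many of all regions had such patterns was not counted. Whether these counts, or the 31 starts above, are particular to kinesins was therefore not tested. The KIF15, KIF20B and KIF20A regions described above had peaks in aRG and bRG only. The KIF1A region at 14302 bp and the KIF16B region at 74996 bp had one in N only, and the KIF19 region at 6462 bp had one in bIP only.

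Other genes of the microtubule system were counted by locus, and among all loci 32.7% were higher and 28.1% lower in N than in aRG. Among 20 spindle and cytokinesis genes, 9 were lower and 1 higher in N than in aRG, with a median of -0.26 on the log2 scale. The 9 became 4 without aRG replicate 2 and 5 without N replicate 1. AURKB, the kinase of the chromosomal passenger complex, went from 20.5 and 22.3 CPM in aRG to 8.89 and 10.1 CPM in N (log2 difference -1.17, SE 0.21, adjusted p = 0.0013). PLK1, a mitotic kinase, went from 22.6 and 24.9 CPM to 13.8 and 13.6 CPM (log2 difference -0.80, SE 0.15, adjusted p = 0.0014). In bIP against aRG 4 were lower and 0 higher, where 18.5% and 21.9% of all loci were, and the 4 became 0 without aRG replicate 2. Of 10 kinesin light chain and adaptor genes with a locus, 3 were higher and 0 lower in N than in aRG, and 0 remained higher without aRG replicate 1. Of 17 dynein and dynactin genes, which form the motor that walks to the minus end, 4 were higher and 2 lower, and 1 was higher without aRG replicate 2. DYNC1I1, a neuronal intermediate chain, rose from 21.8 and 18.1 CPM in aRG to 38.9 and 53.9 CPM in N (log2 difference 1.22, SE 0.18, adjusted p = 0.00036), but by 0.19 with no call when only regions within 10 kb were counted. Among 20 tubulins and microtubule-associated proteins, 7 were higher and 8 lower in N than in aRG, and the 8 became 4 without aRG replicate 1 or N replicate 2. STMN2, a neuronal microtubule regulator, rose from 22.2 and 29.2 CPM to 70.6 and 77.9 CPM (log2 difference 1.53, SE 0.16, adjusted p = 5.3e-05), and CRMP1, which binds tubulin in axons, from 92.8 and 96.3 CPM to 169 and 160.2 CPM (log2 difference 0.80, SE 0.09, adjusted p = 7.2e-05). TUBB2B, a tubulin of young neurons, fell from 173 and 159.7 CPM to 134 and 123 CPM (log2 difference -0.38, SE 0.09, adjusted p = 0.0059).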

How the data were processed

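Accessibility was measured by ATAC-seq in 8 libraries, 2 from each of 4 sorted populations. The deposited table holds read counts per region and library, per the file headers, with matched region identifiers for panTro6, hg38 and gorilla, the closest gene and its distance. The authors also deposited consensus peaks per population, with a score, a fold enrichment (a ratio) and −log10 p and q values, per the narrowPeak layout that the file headers name. The submitters' processing notes name the tools bcl2fastq 2.20.0 and MACS2, without their roles, and the genome builds panTro6 and hg38. Sources used here do not give the aligner, the counting rule or the build of the distances. Removed were 6725 rows without a chimpanzee identifier, whose counts were all 0, and 7 rows with a repeated identifier.

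Counts as deposited were fitted for all regions with edgeR 4.0.16 (TMM scaling, filterByExpr, robust quasi-likelihood fit, R 4.3.3), population as the only term and all 8 libraries in the fit. P-values were adjusted by the Benjamini-Hochberg method over the 198227 regions tested, or over 40354 loci for counts summed within 50 kb of a gene. A region or locus is called, or said to rise or fall, at an adjusted p under 0.05. CPM values use TMM-scaled totals, separately for regions and loci, and the SE is the log2 difference divided by the square root of F. The fits were tested on simulated counts. Library totals (see the range in the report) set the precision of regions near 1 CPM, which rest on few reads.

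Named in full were the starts and loci of KIF11, KIF14, KIF20A, KIF23, KIF2C, KIF18A, KIF1A, KIF5A, KIF5C, KIF21A and KIF3C, and per comparison the 3 called regions and loci with the smallest p in each direction; others were chosen after their values were seen. The kinesin genes and all gene lists were chosen with earlier results of these data known. Alternatives were relative log expression scaling, DESeq2 1.42.0, no count filter, a replicate block, leaving out each library, other windows for loci, each scaled on its own sums, and stricter peak thresholds.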

Additional observations from a re-analysis of the deposited data

How the results depend on the processing

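Counted in both directions together, the kinesin regions and loci that passed the test stayed within 1.5 times their main number under relative log expression scaling, no count filter, DESeq2 and windows of 10 kb or any distance, and no called value named by the rule turned its direction. Counted by direction they moved further. DESeq2 gave 10 rather than 19 higher in N against bIP and, at gene starts, 9 rather than 16 lower in bIP, and 2 rather than 5 starts higher in N against aRG, which were 3 under relative log expression scaling. With regions at most 1 kb from the gene, 8 loci rather than 14 passed in bIP against aRG and 6 rather than 10 in N against bIP. Outside the rule, 2 loci turned in N against aRG with the window. KIF12 was -0.83 within 50 kb and 0.78 within 1 kb, and KIF16B was -0.55 within 50 kb and 0.97 over regions at any distance. Leaving out each library in turn gave 52 to 81 regions (75 with all libraries) in bIP against aRG, 45 to 60 (62) in N against bIP, 83 to 98 (97) in N against aRG, 0 in bRG against aRG, and 89 to 105 (101) for any difference among populations. For loci the ranges were 10 to 16 (14), 7 to 10 (10), 16 to 20 (19) and 0. Relative log expression scaling moved the median log2 difference of all regions in N against aRG from 0.13 to 0.03, and leaving out bIP replicate 2 moved it to -0.02. Of 55 called values named by the rule, 39 passed under each alternative and 16 were lost under at least 1. Of the 50 named values that were not called, sign changes came in 36 combinations of value and alternative, and 19 combinations passed the test. Same-numbered libraries deviated together only weakly, with correlations of 0.12 to 0.31 between populations, and the labels do not say what a number shares. A replicate block gave 90 regions in bIP against aRG, 71 in N against bIP, 103 in N against aRG and 114 for any difference, with 21, 15 and 22 loci in the same order of comparisons, and 0 in bRG against aRG. With the block, lower loci in N against bIP went from 7 to 11 and lower mitotic loci in bIP against aRG from 6 to 9. Peaks with −log10 q of at least 5 gave the same overlaps, and requiring 50% of a region gave 84, 80, 74 and 62 regions in aRG, bRG, bIP and N. Regions below 1 CPM rest on few reads. Calls lost without 1 library also came at better covered regions, such as the KIF2C start.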
